A study of Mus musculus with 12 samples.

Results

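The cauda epididymidis of Dicer1 cKO mice was compared with the cauda of control mice across all genes of a whole transcript array, with 3 arrays titled Cauda KO and 3 titled Cauda Control out of 12 arrays in the series. The other 6 arrays hold the corpus, 3 control and 3 cKO, and were used to share the estimate of spread and to test whether a difference depended on the region. Controls were Dicer1fl/fl mice and cKO mice were Defb41iCre/wt;Dicer1fl/fl, so that both carried floxed Dicer1 alleles and the Cre allele was in the cKO alone. The mice were of a mixed C57Bl/6N and SV129 background, their age is not given in the sources used here, and the paired tissues of one region were pooled by mouse. The Defb41 promoter drives Cre in the principal cells that line the initial segment and caput, upstream of the cauda, so the Dicer1 signal in the cauda checks no label. It was 7.51, 7.59 and 7.64 in control replicates 1 to 3 and 7.76, 7.77 and 7.71 in cKO replicates 1 to 3. The cKO arrays were slightly above the control arrays, with a difference of 0.17 and an adjusted p of 1 from limma. All levels here are log2 intensities after robust multi-array averaging (RMA), always given in the order of replicates 1 to 3, and all differences are cKO minus control on that scale, where 1 unit is a 2-fold change.

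The cauda is the last segment of the epididymis and stores spermatozoa before ejaculation. Its duct is lined by principal cells, which secrete and resorb luminal fluid, by clear cells, which acidify the lumen with a vacuolar proton pump, and by basal cells at the base of the epithelium. A thick coat of smooth muscle surrounds the duct, with fibroblasts, vessels and leukocytes between its coils. Spermatozoa make little RNA of their own, and what they carry was made in the testis, during meiosis and in round spermatids. It includes messages for the proteins that compact sperm chromatin, for sperm forms of metabolic enzymes, for the flagellum and for the acrosome. A piece of cauda holds both the wall and this stored content.

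Each gene was read from the brightest of its probe-sets that carry 1 symbol, which gave 22180 genes from 41345 probe-sets. Array medians lay between 5.19 and 5.31, and correlations between arrays were 0.971 to 0.986 within the cauda groups and 0.972 to 0.984 between control and cKO. Genes of the cauda epithelium fitted the label, since Spink14 lay between 12.54 and 12.78 on the 6 cauda arrays and between 2.79 and 6.86 on the 6 corpus arrays. Epcam, of all epithelia, lay between 9.52 and 9.98 on the cauda arrays and Acta2, of smooth muscle, between 13.06 and 13.48. Replicate 3 stood apart in both genotypes by one set of genes. On the list of 37 initial segment and caput secretions, the control means were 8.58, 8.36 and 7.10. The cKO means were 8.87, 8.91 and 6.85. Not every member reads caput content. Defb2 and Lcn12 had control means of 12.63 and 12.76 in the cauda, above 10.87 and 11.74 in the corpus. Rnase9 had 10.17 in the cauda and 12.74 in the corpus. Spink8 lay between 13.38 and 13.49 on the 6 cauda arrays, so only part of the list was low in replicate 3. Lcn8, a caput lipocalin, was at 6.33 and 4.83 on the 2 arrays numbered 3 and between 8.44 and 9.68 on the other 4. Nothing in the sources used here says that arrays with the same number belong together.

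Most of the largest differences were lower values in the cKO, and many of the genes concerned are known from germ cells. No probe-set passed an adjusted p under 0.05 in the limma fit of all 12 arrays, while 1585 probe-sets were lower (3.83%) and 756 higher (1.83%) at an unadjusted p under 0.05. With each array centred on its median these were 1315 and 1196. The count at an adjusted p under 0.05 rested on single arrays of the corpus, being 116 when cKO replicate 1 and 118 when cKO replicate 3 of that region was left out. An unadjusted p under 0.002 and over 2-fold, the threshold of the study, was met in limma by 298 lower probe-sets (0.721%) and 12 higher ones (0.029%). The study applied it to ANOVA contrasts, so its own counts are not like these. With each probe-set's own variance in place of the moderated one, 90 were lower and 6 higher. In genes, the moderated fit gave 158 lower genes (0.712% of all genes) and 2 higher ones (0.00902%). The lower genes comprised 34 of the germ cell lists, 24 RIKEN clones of the series named from testis libraries, 2 matricellular genes and 98 genes on no list, and 0 of the epithelial, stromal or muscle lists. The higher genes were Azgp1, on the principal cell list, and AY761185, on no list. In a limma fit of the 6 cauda arrays alone, 60 genes fell at an adjusted p under 0.05 (0.271% of all genes), of which 20 were on germ cell lists and 8 were RIKEN testis clones, and 2 genes rose (0.00902%), S100a8 and AY761185. That fit takes its spread from the cauda alone, and calls below that rest on it are named as such. Most genes named below were picked by the smallest p or after their values were seen. A lack of overlap or a gap between their groups therefore adds nothing to their p-values.

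**Figure D1:**
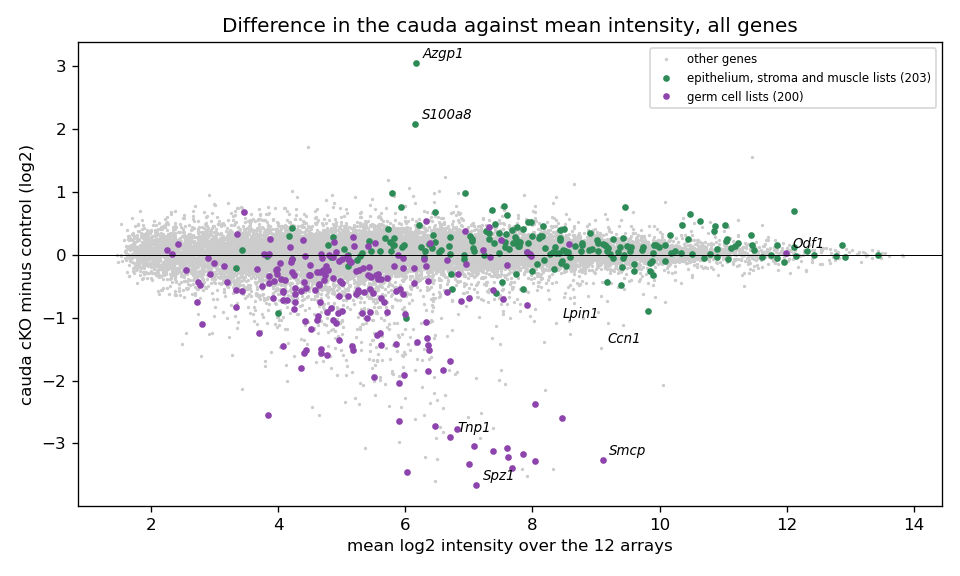
Difference between cKO and control in the cauda (y axis, log2) against the mean log2 intensity over the 12 arrays (x axis), one point per gene for 22180 genes. The 200 genes of the germ cell lists (purple) reach down to -3.66 (Spz1), whereas the 203 genes of the epithelial, stromal and muscle lists (green) lie around 0, with Azgp1 (3.04) and S100a8 (2.09) above them.

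Members and lists were chosen with earlier results of these data known, so the shares given for lists here and below describe them and test nothing. The 5 lists of genes made in spermatids and kept in spermatozoa held 151 measured genes with a median difference of -0.58, against 0.03 over all genes. Of these, 142 were lower and 9 higher in the cKO. At an unadjusted p under 0.05, 94 were lower (62.3%, against 3.77% of all genes) and 1 was higher (0.662%, against 1.45%). The cKO arrays lay below the control arrays without overlap for 100 genes (66.2%, against 6% of all genes). In a piece of tissue, fewer cells of a type and less RNA per cell cannot be told apart. The 203 genes of the epithelial, stromal and muscle lists had a median of 0.12, with 52 lower and 151 higher. Over all 22180 genes, 9211 were lower and 12969 higher. Only 4 of the 203 were lower (1.97%) and 6 higher (2.96%) at an unadjusted p under 0.05. Without both arrays numbered 3 the medians were -0.59 for the first group of lists and 0.04 for the second.

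**Figure D2:**
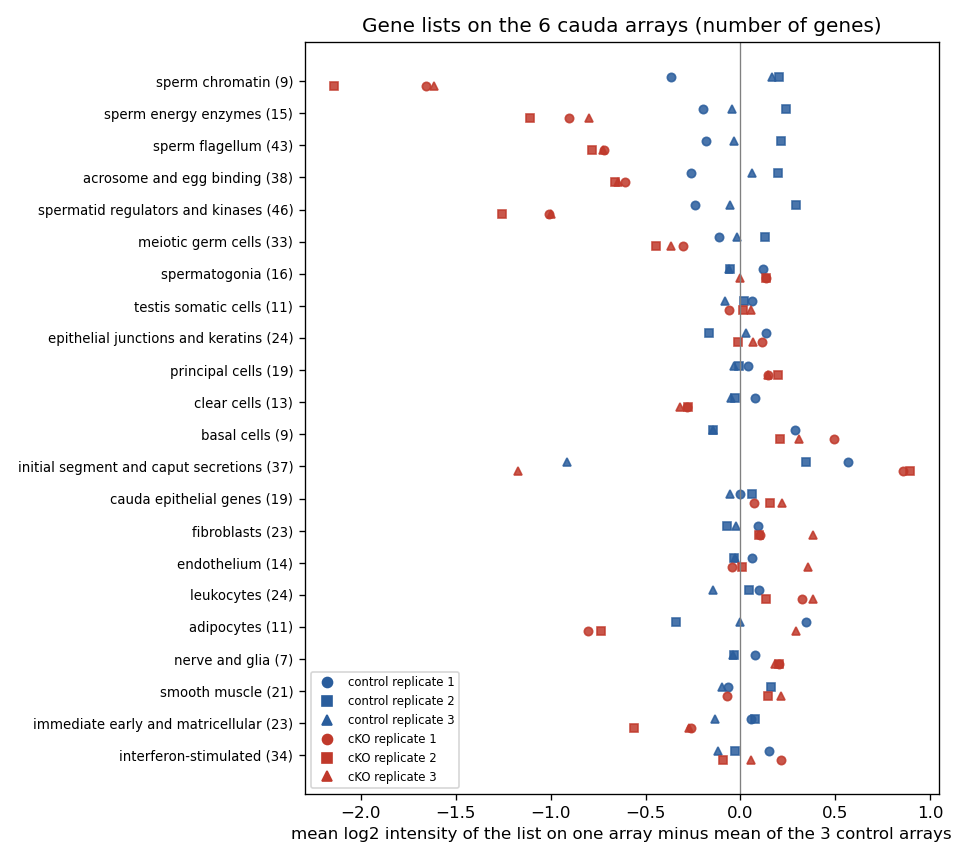
Mean log2 intensity of each gene list on each of the 6 cauda arrays minus the mean of the 3 control arrays (x axis, log2), with the number of genes in brackets; each point is one array, blue for control and red for cKO. The 5 spermatid and sperm lists have every cKO array left of every control array, and the list of initial segment and caput secretions has replicate 3 of both genotypes far to the left.

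The sperm chromatin list differed most, with a median of -1.46 over 9 genes. One member, Spem1, is a spermatid gene but not a gene of chromatin. All 9 were lower, 7 of them at an unadjusted p under 0.05 (77.8%, against 3.77% of all genes). Tnp1, a transition protein that replaces histones in elongating spermatids, was at 7.83, 8.96 and 8.70 in the controls and 5.63, 5.36 and 5.81 in the cKO. The groups were 2.02 apart at their nearest arrays. The difference was -2.90 (standard error 0.58, 95% interval -4.17 to -1.62), a level 7.45-fold higher in controls, with an adjusted p of 0.143 from limma over 12 arrays and 0.0447 over the 6 cauda arrays. Prm1, a protamine that packs DNA in the sperm head, was at 9.46, 10.23 and 10.13 in the controls and 7.84, 6.59 and 7.61 in the cKO. Its lowest value was again in cKO replicate 2, and its difference was -2.60 (standard error 0.52, adjusted p = 0.143 from limma). H1f7, a linker histone of spermatids, had a difference of -1.46 (standard error 0.32) without overlap. Tnp2, the second transition protein, and Spem1, the member not of chromatin, had differences of -3.16 and -3.21, and both fell in the fit of the 6 cauda arrays.

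Enzymes of energy metabolism that exist in a sperm form were lower in 13 of 15 cases, with a median of -0.55. At an unadjusted p under 0.05, 10 of the 15 were lower (66.7%, against 3.77% of all genes). Pgk2, the phosphoglycerate kinase of spermatids, was at 7.5, 8.53 and 7.79 in the controls and 4.17, 3.97 and 5.33 in the cKO. The difference of -3.45 (standard error 0.75, adjusted p = 0.148 from limma) corresponds to a level 10.96-fold higher in controls, with cKO replicate 3 the highest of its group. Gapdhs, the glyceraldehyde-3-phosphate dehydrogenase of the sperm flagellum, was at 9.46, 10.20 and 10.22 against 6.95, 6.06 and 7.02, and Ldhc, the sperm lactate dehydrogenase, at 6.36, 6.82 and 6.54 against 5.36, 4.90 and 5.14. Both were without overlap between the groups and both fell in the fit of the 6 cauda arrays. Oxct2b, a testis enzyme of ketone body use, was at 6.25, 6.83 and 6.29 in the controls and 4.76, 4.14 and 4.64 in the cKO. Its difference was -1.94 (standard error 0.31, adjusted p = 0.0876 from limma). Oxct2b had a second probe-set of nearly the same mean intensity (5.38 against 5.51), which gave -0.26 (unadjusted p = 0.15 from limma). Its relative Oxct2a was the one member of the list that was higher at an unadjusted p under 0.05, with 3.43, 2.68 and 3.54 against 3.80, 3.58 and 4.31 and a difference of 0.68 (standard error 0.30, adjusted p = 0.822 from limma).

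Of the genes for the flagellum, 40 of 43 were lower, 28 at an unadjusted p under 0.05 (65.1%, against 3.77% of all genes), with a median of -0.56. Fscb, a calcium-binding protein of the fibrous sheath, was at 4.93, 5.88 and 4.92 in the controls and 2.76, 2.71 and 2.61 in the cKO. The cKO arrays were close together, and the difference was -2.55 (standard error 0.47, adjusted p = 0.135 from limma). Akap4, the main anchoring protein of the fibrous sheath, was at 7.83, 9.08 and 8.00 against 5.89, 5.25 and 5.45. Smcp, a cysteine-rich protein of the capsule around sperm mitochondria, was at 10.56, 11.63 and 10.93 against 7.62, 7.23 and 8.50, a difference of -3.26 (standard error 0.93, adjusted p = 0.339 from limma). Akap4, Smcp and Fscb fell in the fit of the 6 cauda arrays. Dnah8, a dynein heavy chain of the axoneme, had a difference of -1.51, and Septin12, of the ring between the midpiece and the principal piece, one of -0.89. Among the sperm calcium channel genes, Catsper1 differed by -0.45, Catsper2 by -0.57 and Catsperb by -0.43, each at an unadjusted p under 0.05. Odf1, an outer dense fibre protein, was read by 2 probe-sets that went separate ways. The brighter, used here, was between 11.86 and 11.95 on all 6 cauda arrays with a difference of 0.03, and the dimmer differed by -3.47 (unadjusted p = 0.00165 from limma).

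Genes of the acrosome and of egg binding were lower in 35 of 38 cases, with a median of -0.40. At an unadjusted p under 0.05, 18 were lower (47.4%, against 3.77% of all genes). Fabp9, of the fatty acid binding proteins and found in the sperm head, was at 8.49, 9.46 and 9.12 in the controls and 6.07, 5.05 and 5.97 in the cKO. The groups were 2.43 apart at their nearest arrays, the difference was -3.33 (standard error 0.72, adjusted p = 0.148 from limma), and the gene fell in the fit of the 6 cauda arrays. Crisp2, a cysteine-rich secretory protein of the acrosome, was at 7.51, 8.90 and 8.09 against 5.25, 5.59 and 5.51 and fell in that fit as well. Adam3, a surface protein needed for sperm to pass into the oviduct and bind the zona pellucida, differed by -2.04 and its relative Adam5 by -1.91. Izumo3 differed by -1.11, Cylc1, of the cytoskeleton around the nucleus, by -0.74 and Acr, the acrosomal protease, by -0.75. Izumo1, the sperm protein that binds the egg receptor Juno, differed by -0.32 (unadjusted p = 0.047 from limma).

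Regulators and kinases of spermatids were lower in 45 of 46 cases, with a median of -0.90. At an unadjusted p under 0.05, 31 were lower (67.4%, against 3.77% of all genes). At the threshold of the study 16 were lower, where 0.712% of all genes were. Gtsf1, a zinc finger protein of the piRNA pathway, was at 5.32, 5.25 and 5.38 in the controls and 3.97, 4.20 and 4.27 in the cKO. The groups were 0.98 apart at their nearest arrays, and the difference of -1.17 (standard error 0.16) had an adjusted p of 0.0517 from limma over 12 arrays and 0.0447 over the 6 cauda arrays. Pdcl2, a phosducin-like chaperone of spermatids, was at 5.25, 5.95 and 5.73 against 4.33, 3.70 and 4.22 (difference -1.56, standard error 0.26, adjusted p = 0.0992 from limma). The testis serine kinases Tssk2, Tssk6 and Tssk3 differed by -1.83, -1.70 and -1.43, and Tssk1, Tssk4 and Tssk5 by -0.25, -0.35 and -0.07 without passing an unadjusted p under 0.05. Oaz3, the testis antizyme, was at 8.95, 10.16 and 9.25 against 6.20, 5.4 and 6.59, and fell in the fit of the 6 cauda arrays. Spz1, a transcription factor of the testis, had the lowest difference of all genes, -3.66, from 8.89, 9.76 and 8.99 to 6.20, 4.51 and 5.94. Crem, the cAMP-responsive activator of spermatid genes, differed by -0.39 (unadjusted p = 0.0309 from limma) and Rfx2 by -0.31 (unadjusted p = 0.094).

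**Figure D3:**
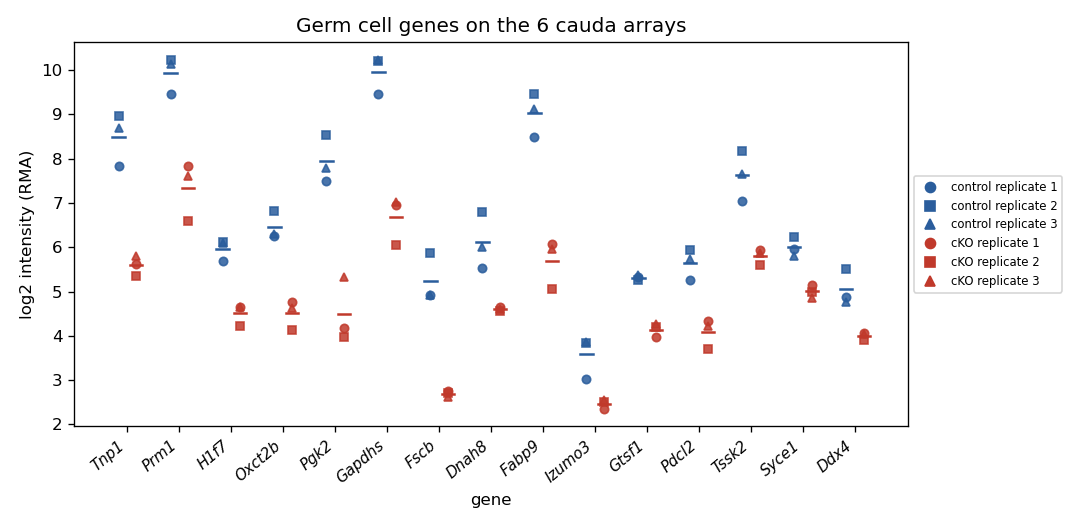
Log2 intensity (y axis) of 15 germ cell genes on the 6 cauda arrays, blue for control and red for cKO, with the mean of each group as a line. For every gene the cKO arrays lie below the control arrays, by 2.02 at the nearest arrays for Tnp1, and control replicate 2 is mostly the highest point. The genes were picked by the smallest p in this comparison, so the lack of overlap adds nothing to their p-values.

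The lists of earlier germ cell stages differed less. Of 33 meiotic genes, 23 were lower and 10 higher, and the median was -0.24. Many had low signals, since 22 of the 33 were below the median intensity of all values, as were 76 of the 151 spermatid and sperm genes. The median was -0.42 for the meiotic genes above that level and -0.24 for those below. For the 151 it was -0.70 and -0.49. The part of low signal in the smaller differences was not tested. At an unadjusted p under 0.05, 11 were lower (33.3%, against 3.77% of all genes). Syce1, of the synaptonemal complex, was at 5.96, 6.24 and 5.81 in the controls and 5.16, 5.0 and 4.85 in the cKO (difference -1.0, standard error 0.17, adjusted p = 0.103 from limma). Ddx4, the germ cell RNA helicase also known as VASA, differed by -1.05, Piwil1, of the pachytene piRNA pathway, by -0.63, and Mael, of the same pathway, by -2.65 from 6.69, 8.21 and 7.42 to 4.97, 4.24 and 5.17. Sycp1, which defines the synaptonemal complex of meiotic prophase, was at 3.84, 4.01 and 3.63 against 4.20, 3.71 and 4.31, with overlap and below the median intensity of all values. The 16 spermatogonial genes, 10 of them below that level, had a median of 0.01. None passed an unadjusted p under 0.05, and whether they read germ cells in the cauda was not tested. The 11 genes of somatic testis cells had a median of 0.13 and none passed either.

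Of 776 RIKEN clones of testis libraries, 123 were lower (15.9%, against 3.77% of all genes) and 3 higher (0.387%, against 1.45%) at an unadjusted p under 0.05, with a median of -0.09, and most of them (616) were below the median intensity of all values. 4921507P07Rik had the smallest p of all genes, with 7.86, 8.56 and 8.04 in the controls and 6.39, 6.19 and 5.87 in the cKO (difference -2.0, standard error 0.25, adjusted p = 0.0517 from limma). Of the 28 genes named Spata, 26 were lower and 14 (50%) were so at an unadjusted p under 0.05, and of the 38 named Tex, 30 were lower and 9 (23.7%) were so at that threshold. Some of both families are also on the lists above. Among genes on no list with the smallest p, Zbbx was at 4.77, 5.44 and 5.04 against 3.40, 3.34 and 3.26, and Spata33 at 7.12, 7.40 and 7.68 against 5.90, 5.92 and 6.53. Both were without overlap, and Zbbx fell in the fit of the 6 cauda arrays. Other lower genes on no list included Hmgb4 (-1.83), an HMG box protein of spermatids, Odf2 (-1.33), of the outer dense fibres, Catsperg2 (-1.26), of the sperm calcium channel, Clgn (-1.44), a chaperone for sperm surface proteins, and Ldhal6b (-1.69), a testis lactate dehydrogenase. Not all were germ cell genes by known role. Lrrc8b, a subunit of the volume-regulated anion channel, was at 8.99, 9.81 and 8.96 against 7.22, 6.60 and 7.47 (difference -2.16, standard error 0.35, adjusted p = 0.0876 from limma), and Fbp1, a gluconeogenic enzyme, differed by -1.42.

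Array by array, the mean of the 151 spermatid and sperm genes was 5.69, 6.16 and 5.92 in the controls and 5.07, 4.91 and 5.07 in the cKO. Control replicate 2 was the highest control array for 97 of the 151 and cKO replicate 2 the lowest cKO array for 72. Leaving out control replicate 2 gave a median difference of -0.49 and leaving out control replicate 1 gave -0.70. In the corpus the same genes had a mean of 5.12, 5.57 and 5.54 in the controls and 5.63, 5.15 and 4.84 in the cKO, with cKO replicate 1 above every control array, and their median difference was -0.17. The cauda effect minus the corpus effect was negative for 47 of the 151 at an unadjusted p under 0.05 (31.1%, against 3.31% of all genes) and positive for 2 (3.13% of all genes), and no probe-set passed an adjusted p under 0.05 in that test of the difference (unadjusted p under 0.05 for 734 genes downwards and 694 upwards). For Tnp1 the corpus values were 5.63, 6.99 and 6.76 in the controls and 7.68, 6.15 and 5.0 in the cKO, and the test of the difference between regions gave -2.71 (standard error 0.82, adjusted p = 0.69 from limma).

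**Figure D4:**
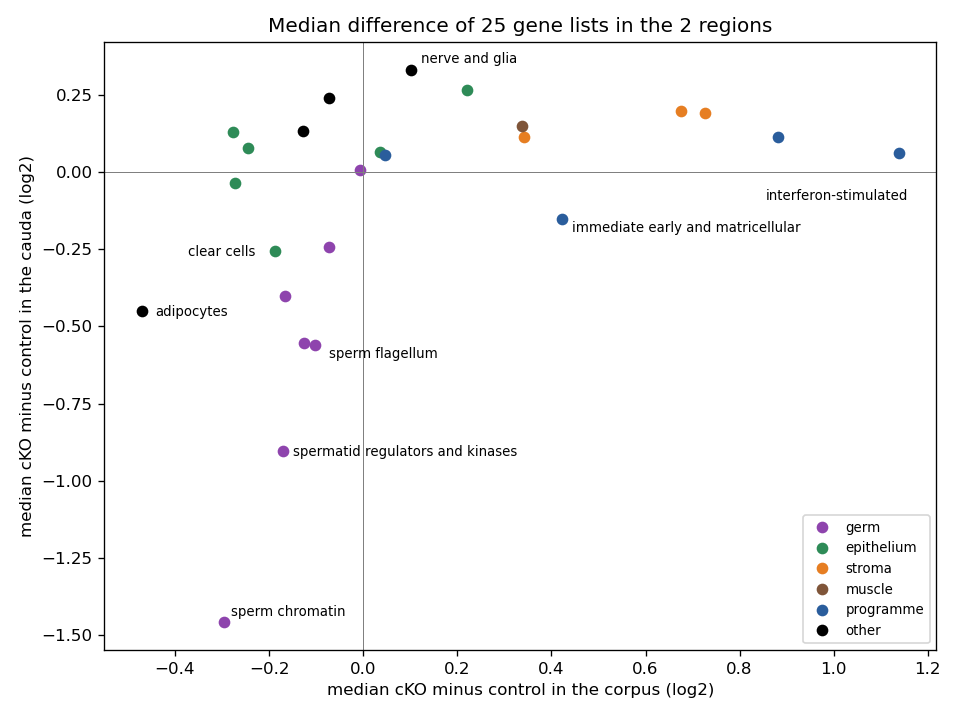
Median log2 difference between cKO and control of 25 gene lists in the cauda (y axis) against the corpus (x axis), one point per list, coloured by tissue compartment. Sperm chromatin lies lowest in the cauda at -1.46 with -0.30 in the corpus, and the interferon-stimulated list lies farthest right, at 1.14 in the corpus with 0.06 in the cauda.

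In the epithelium most genes differed little. The 24 genes of epithelial junctions and keratins had a median of 0.06 and none passed an unadjusted p under 0.05, with Cdh1 at 10.20, 9.82 and 10.01 in the controls and 10.19, 9.96 and 10.06 in the cKO. The 19 principal cell genes had a median of -0.04. Aqp9, their water and solute channel, was at 9.35, 9.23 and 9.20 against 9.43, 9.45 and 9.45. Azgp1, a zinc-binding glycoprotein known as a lipid-mobilising factor, was the one gene of this list past an unadjusted p under 0.05. It was at 6.03, 6.01 and 5.60 in the controls and 9.27, 10.20 and 7.31 in the cKO. All cKO arrays were above all controls, 1.28 apart at the nearest, and replicate 3 was the lowest cKO array. The difference was 3.04 (standard error 0.56, 95% interval 1.82 to 4.27), 8.25-fold, with an adjusted p of 0.129 from limma. Without cKO replicate 3 it was 3.85 with an adjusted p of 0.0113 from limma, and without both arrays numbered 3 it was 3.71 with an adjusted p of 0.0958. Replicate 3 was also the lowest array of its group in the mean of the caput list, and the part of this in the value of Azgp1 was not tested. In the corpus Azgp1 was between 4.61 and 5.62 with a difference of 0.23, and the test of the difference between regions gave 2.82 (standard error 0.79, adjusted p = 0.69 from limma).

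The 37 genes of initial segment and caput secretions had a median of 0.13 and none passed an unadjusted p under 0.05. That median rested on single arrays, being -0.12 without control replicate 3, 0.52 without control replicate 1, 0.38 without control replicate 2, -0.036 and -0.038 without cKO replicates 1 and 2, 1.01 without cKO replicate 3 and 0.50 without both arrays numbered 3. Gpx5, the caput glutathione peroxidase, was at 11.97, 12.04 and 10.21 in the controls and 12.31, 12.57 and 11.44 in the cKO, so that the groups overlapped and replicate 3 was lowest in both. Genes of the cauda epithelium had a median of 0.08 over 19 genes. Spink14 differed by -0.10 and Hoxd10 by 0.25, while Krt4, a keratin of stratified epithelia, was at 5.85, 6.04 and 6.30 against 6.87, 6.57 and 7.70. The groups did not overlap, and the difference was 0.99 (standard error 0.25, adjusted p = 0.232 from limma). Krt4 was also higher in the corpus, by 1.02, and its difference between regions was -0.03 (standard error 0.36). Lce6a was at 7.97, 8.76 and 8.15 against 6.98, 7.57 and 7.30 in the cauda, a difference of -1.01 (standard error 0.61), whereas it was higher by 1.39 in the corpus.

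Clear cell and basal cell genes lay on opposite sides of 0. Of 13 clear cell genes, 11 were lower, 7 without overlap (53.8%, against 6% of all genes), and the median was -0.26. At an unadjusted p under 0.05, 3 were lower (23.1%, against 3.77% of all genes). In the corpus the median was -0.19, with 3 of the 13 lower at that threshold (4.8% of all genes were). The difference between regions passed it for 0 of the 13. Their mean in the cauda was 8.59, 8.48 and 8.46 in the controls and 8.23, 8.24 and 8.19 in the cKO. Car2, the cytosolic carbonic anhydrase, was at 9.70, 9.34 and 9.70 against 8.74, 8.86 and 8.46 (difference -0.89, standard error 0.37, adjusted p = 0.773 from limma), and Atp6v0a4, a subunit of the proton pump, at 7.02, 6.69 and 7.0 against 6.69, 6.17 and 6.21, where the groups touched. Adcy10, the bicarbonate-sensitive adenylyl cyclase, differed by -0.92 and is also known as a gene of spermatids. Foxi1, which specifies these cells, was at 10.22, 10.05 and 9.97 against 9.97, 9.91 and 10.03, with overlap. All 9 basal cell genes were higher, 2 of them at an unadjusted p under 0.05 (22.2%, against 1.45% of all genes), with a median of 0.27. Ngfr was at 6.05, 5.83 and 5.14 in the controls and 6.37, 6.68 and 6.24 in the cKO (difference 0.76, standard error 0.28, adjusted p = 0.637 from limma), and Trp63, the p63 factor of basal cells, at 7.65, 7.29 and 6.97 against 7.70, 7.71 and 7.70. Control replicate 1 was the highest control array for 8 of the 9, and leaving it out gave a median of 0.50. Without control replicate 2 the median was 0.17.

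Stromal genes were mostly slightly higher, where 12969 of all 22180 genes were higher. Of 23 fibroblast genes, 20 were higher and 9 were so without overlap (39.1%, against 5.5% of all genes), but none passed an unadjusted p under 0.05 and the median was 0.20. Col1a1, of fibrillar collagen, was at 11.07, 10.62 and 11.41 in the controls and 11.41, 11.60 and 11.51 in the cKO, and Lum, a proteoglycan that orders collagen fibrils, at 7.67, 7.14 and 7.08 against 8.05, 7.92 and 8.06. The cKO arrays were above the controls for both, with differences of 0.48 (standard error 0.24) and 0.71 (standard error 0.40). The fibroblast median was 0.12 without cKO replicate 3 and 0.032 without both arrays of that number. In the corpus it was 0.68, with 16 of the 23 genes higher at an unadjusted p under 0.05 (against 5.49% of all genes, and 4.8% lower). Endothelial genes had a median of 0.11 and leukocyte genes one of 0.19. Of 24 leukocyte genes, 22 were higher and 2 were so at an unadjusted p under 0.05 (8.33%, against 1.45% of all genes). The endothelial median was -0.0060 without cKO replicate 3, 0.062 without control replicate 3 and -0.014 without both, and the leukocyte median was 0.087 without control replicate 3 and 0.057 without both arrays of that number.

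S100a8, a calcium-binding protein abundant in neutrophils, was at 6.80, 7.04 and 6.61 in the controls and 8.89, 9.06 and 8.76 in the cKO. The groups were tight and 1.71 apart. The difference was 2.09 (standard error 0.53, adjusted p = 0.221 from limma), a level 4.25-fold higher in the cKO, and it passed the adjusted threshold in the fit of the 6 cauda arrays (adjusted p = 0.0447). S100a9, its partner in neutrophils, was at 3.82, 3.76 and 4.48 against 4.27, 4.49 and 4.56, with overlap. The mean of the leukocyte list, S100a8 included, was 7.17, 7.12 and 6.93 in the controls and 7.39, 7.21 and 7.45 in the cKO, and the part of leukocyte number in the S100a8 signal was not tested. In the corpus S100a8 was between 3.06 and 5.88.

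Of 21 smooth muscle genes, 18 were higher, 0 of them at an unadjusted p under 0.05, and the median was 0.15. Over all 22180 genes, 12969 were higher. Myh11, the smooth muscle myosin heavy chain, was at 11.96, 12.13 and 12.20 in the controls and 12.19, 12.26 and 12.39 in the cKO, and Acta2 at 13.21, 13.17 and 13.06 against 13.12, 13.29 and 13.48. Myh11 and Acta2 overlapped between the groups. Cnn1, also contractile, did not, being 0.02 apart at the nearest arrays (difference 0.16, standard error 0.23). In the list, 2 genes were higher without overlap (9.52%, against 5.5% of all genes) and 1 lower (4.76%, against 6%). Casq2, a calcium store protein of the sarcoplasmic reticulum, was the one muscle gene that was lower at an unadjusted p under 0.05, with 7.43, 7.36 and 7.43 against 6.82, 7.0 and 7.13 and a difference of -0.43 (standard error 0.18, adjusted p = 0.772 from limma). Without both arrays numbered 3 the muscle median was 0.011, and with 1 cauda array absent it lay between 0.08 and 0.27.

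Adipocyte genes followed single arrays. The mean of 11 of them was 7.51, 6.82 and 7.16 in the controls and 6.36, 6.43 and 7.46 in the cKO, so that cKO replicate 3 was above 2 of the controls. The median was -0.45, or -0.73 without both arrays numbered 3, -0.74 without cKO replicate 3 and -0.26 without control or cKO replicate 1. Lep, the gene for leptin, was at 7.09, 5.84 and 6.47 against 4.70, 5.21 and 6.43, and Fabp4 at 10.29, 8.73 and 9.77 against 8.51, 8.26 and 9.81, both with overlap. Lpin1, a phosphatidate phosphatase of lipid synthesis with high levels in fat and muscle, had a different pattern across the arrays. It was at 8.79, 8.87 and 9.13 in the controls and 7.92, 7.74 and 7.89 in the cKO, 0.87 apart at the nearest arrays. Its difference was -1.08 (standard error 0.17, adjusted p = 0.0876 from limma). Among 7 genes of nerve and glia the median was 0.33, with Gap43 (0.42) and Sox10 (0.40) higher at an unadjusted p under 0.05 (28.6%, against 1.45% of all genes). That median was 0.21 without control replicate 3 and 0.12 without both arrays numbered 3.

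**Figure D5:**
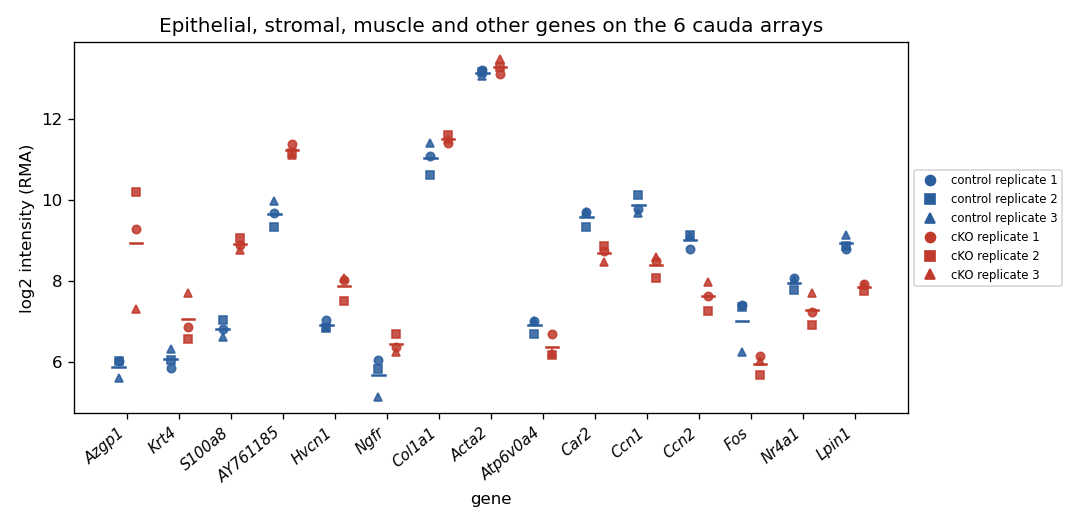
Log2 intensity (y axis) of 15 genes of the epithelium, stroma, muscle and other lists, with AY761185, Hvcn1 and Lpin1 on no list, on the 6 cauda arrays; blue for control, red for cKO, with the group mean as a line. Azgp1 spreads from 7.31 to 10.20 in the cKO, S100a8 is tight in both groups, and Ccn1, Ccn2 and Lpin1 have all cKO arrays below all controls.

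Immediate early and matricellular genes, which cells switch on within minutes of a stimulus or secrete to modify the matrix, were lower in 20 of 23 cases, with a median of -0.15. The median was -0.057 without cKO replicate 2, the lowest cKO array for 19 of the 23. At an unadjusted p under 0.05, 6 were lower (26.1%, against 3.77% of all genes) and 0 higher. Ccn1, a matricellular protein also known as CYR61, was at 9.79, 10.13 and 9.68 in the controls and 8.49, 8.07 and 8.59 in the cKO. The groups were 1.09 apart, and the difference was -1.48 (standard error 0.21, 95% interval -1.95 to -1.01, adjusted p = 0.0548 from limma), with an adjusted p of 0.0554 over the 6 cauda arrays alone. Ccn2, or CTGF, was at 8.79, 9.14 and 9.10 against 7.63, 7.26 and 7.96 (difference -1.40, standard error 0.30, adjusted p = 0.148 from limma), and a dimmer probe-set of Ccn2 gave -0.31. Btg2, an antiproliferative gene, was at 7.61, 7.80 and 7.59 against 7.13, 7.04 and 7.04. Fos, a component of the AP-1 factor, was at 7.40, 7.37 and 6.25 against 6.13, 5.68 and 6.01, and Nr4a1, an orphan nuclear receptor, at 8.07, 7.78 and 8.02 against 7.23, 6.92 and 7.69. The groups did not overlap for any of these genes, although control replicate 3 was near the cKO arrays for Fos and cKO replicate 3 near the controls for Nr4a1. Thbs1, another matricellular gene, was at 9.26, 9.36 and 9.40 against 8.61, 8.32 and 8.78 without overlap, with a difference of -0.77 (standard error 0.38, unadjusted p = 0.0673 from limma). Egr1, Junb and Jun differed by -0.44, -0.17 and 0.03.

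In the corpus the same list was higher in the cKO, with a median of 0.42 and 11 of 23 genes higher at an unadjusted p under 0.05 (5.49% of all genes were). The difference between regions was negative for 13 of the 23 at an unadjusted p under 0.05 (56.5%, against 3.31% of all genes), and none passed after adjustment. For Ccn1 it was -1.74 (standard error 0.30, adjusted p = 0.373 from limma) and for Ccn2 -2.08 (standard error 0.42, adjusted p = 0.515). Thbs1 was at 7.45, 7.39 and 6.47 in the corpus controls and 10.12, 10.10 and 8.59 in the corpus cKO, opposite in direction to the cauda, and its difference between regions was -3.27 (standard error 0.54, adjusted p = 0.373 from limma).

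The cAMP response element, bound by CREB and, in spermatids, by CREM, is a known element of immediate early genes. Promoters are shown for 4 genes of this list, all lower in the cauda of the cKO and all with a match to the short element. Other lower genes of the list, such as Ccn2 and Thbs1, are not shown, so the 4 do not stand for the list. The letters searched were TGACG, the short element, and TGACGTCA, the full element, on both strands (CGTCA is the short element read on the other strand), in the window from 250 bases before to 50 bases after the start of each gene, in RefSeq sequences of GRCm38.p6. The short element was in 10 of the 17 genes of this list with a promoter entry (58.8%), in 23% of all 27025 genes of the promoter table, in 26.8% of the 16990 measured genes with an entry, in 20.6% of 126 spermatid and sperm genes and in 13.9% of 144 epithelial, stromal and muscle genes. The full element was in 2.03% of all genes, in 2 of the 17 and in 2 of the 126. A match describes the letters only. Capitals mark the matches, which lie 58 bases before the start in Ccn1 (chr3:145649936-145650235, minus strand), 166 in Btg2 (chr1:134079106-134079405, minus strand), where they form the full element, 129 and 66 in Fos (chr12:85473640-85473939, plus strand), and 233, 213, 69 and 40 in Nr4a1 (chr15:101266596-101266895, plus strand). Oxct2b (chr4:123115998-123116297, plus strand), the energy enzyme described above, is shown beside them as one of the 26 spermatid and sperm genes with the short element, 45 bases before its start.
Ccn1: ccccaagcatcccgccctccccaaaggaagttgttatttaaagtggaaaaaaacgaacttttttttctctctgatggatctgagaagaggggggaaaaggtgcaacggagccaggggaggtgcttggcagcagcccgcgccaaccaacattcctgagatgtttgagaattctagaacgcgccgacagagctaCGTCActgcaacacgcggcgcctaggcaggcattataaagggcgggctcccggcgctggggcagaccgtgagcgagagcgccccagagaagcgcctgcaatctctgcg
Btg2: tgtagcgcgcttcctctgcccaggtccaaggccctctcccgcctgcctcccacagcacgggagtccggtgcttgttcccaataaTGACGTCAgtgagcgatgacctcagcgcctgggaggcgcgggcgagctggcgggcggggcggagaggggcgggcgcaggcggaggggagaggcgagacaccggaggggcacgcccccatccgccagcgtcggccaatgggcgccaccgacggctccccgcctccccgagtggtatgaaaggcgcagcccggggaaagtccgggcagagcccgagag
Fos: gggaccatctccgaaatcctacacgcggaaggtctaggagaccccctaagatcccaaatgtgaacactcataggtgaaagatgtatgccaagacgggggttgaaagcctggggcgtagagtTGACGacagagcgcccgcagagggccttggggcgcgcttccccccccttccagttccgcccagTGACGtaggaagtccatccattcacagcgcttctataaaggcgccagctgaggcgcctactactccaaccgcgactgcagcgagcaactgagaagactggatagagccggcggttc
Nr4a1: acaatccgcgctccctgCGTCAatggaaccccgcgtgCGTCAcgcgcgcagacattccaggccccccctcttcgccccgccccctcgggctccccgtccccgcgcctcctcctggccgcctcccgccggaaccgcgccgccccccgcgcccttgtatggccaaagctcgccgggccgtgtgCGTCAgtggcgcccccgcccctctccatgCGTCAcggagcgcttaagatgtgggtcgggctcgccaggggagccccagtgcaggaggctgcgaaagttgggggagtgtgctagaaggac
Oxct2b: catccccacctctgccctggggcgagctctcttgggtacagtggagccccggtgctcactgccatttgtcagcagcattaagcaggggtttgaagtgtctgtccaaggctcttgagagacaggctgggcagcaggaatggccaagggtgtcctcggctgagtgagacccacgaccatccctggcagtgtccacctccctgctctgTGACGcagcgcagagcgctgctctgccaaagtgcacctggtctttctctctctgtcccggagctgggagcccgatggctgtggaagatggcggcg

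Among the genes on no list that were higher in the cKO, AY761185 had the smallest p. It was at 9.68, 9.33 and 9.98 in the controls and 11.39, 11.16 and 11.12 in the cKO. The groups were 1.14 apart, the difference was 1.56 (standard error 0.25, adjusted p = 0.0876 from limma), and the gene rose in the fit of the 6 cauda arrays (adjusted p = 0.048). It was also higher in the corpus, by 1.30, and the difference between regions was 0.27 (standard error 0.36). Hvcn1, a voltage-gated proton channel, was at 7.03, 6.83 and 6.85 against 8.02, 7.50 and 8.07 (difference 0.96, standard error 0.19, adjusted p = 0.143 from limma). The other 8 genes with the smallest p differed by 0.55 to 0.93, among them the cation channel Trpc6 (0.55), the potassium channel Kcna1 (0.68) and Sbspon, a secreted matrix protein (0.93). The cKO and control arrays of these genes did not overlap. They were picked by the smallest p, so this adds nothing to the p-values.

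The 34 interferon-stimulated genes had a median of 0.06 in the cauda, with 0 passing an unadjusted p under 0.05 in either direction. In the corpus the median was 1.14, with 29 higher at that threshold (5.49% of all genes were). The difference between regions was negative at an unadjusted p under 0.05 for 27 of the 34 (79.4%, against 3.31% of all genes). Mx1, an interferon-induced GTPase, was at 4.11, 4.05 and 4.27 in the cauda controls and 3.76, 3.80 and 4.08 in the cauda cKO, with overlap. The 19 proliferation genes had a median of 0.11 in the cauda (-0.010 without cKO replicate 1 and 0.24 without cKO replicate 3) and 0.88 in the corpus. In the cauda, Cdk1, the mitotic kinase, was at 6.13, 5.71 and 5.01 against 6.79, 6.02 and 5.83, with overlap.

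Genes of microRNA processing differed little in the cauda. The list of 9, Dicer1 included, had a median of 0.05, and Tarbp2, a partner of DICER1, was at 6.29, 6.31 and 6.19 against 5.98, 6.08 and 6.25. Of 483 probe-sets for microRNA genes, which on this array read hairpin or host transcripts rather than mature microRNAs, 11 were lower (2.28%, against 3.77% of all genes) and 15 higher (3.11%, against 1.45%) at an unadjusted p under 0.05, with a median of 0.02.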

How the data were processed

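Total RNA of corpus and cauda was hybridised to Affymetrix Mouse Gene 2.0 ST arrays, according to the methods of the study, whereas the sample labels describe a labelling kit for microRNA arrays. The authors deposited 1 log2 intensity for each probe-set and array, after RMA in Partek Genomics Suite 6.5. These were used without further normalization. Of 41345 probe-sets, 23521 carry 1 gene symbol in the annotation of the array, 1820 carry several and are not named, and 16004 carry none here. Pate4 shares its probe-set with Pate2 and is not reported. The means of the 4 groups were fitted over 12 arrays in limma 3.58.1 under R 4.3.3 with empirical Bayes moderation (8 residual and 3.18 prior degrees of freedom), and two-sided p-values were corrected over every probe-set by the Benjamini-Hochberg method. With 3 arrays per group an exact permutation test of one value cannot go below p = 0.1, so precision is limited by the number of arrays.

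The 25 gene lists hold 518 measured genes of 567 written. Members and lists were chosen with earlier results of these data known, and lists were described and not tested. Genes were named by the smallest p, 3 for each germ cell list, 2 for each other list, 10 in each direction on no list and 5 RIKEN testis clones, together with Dicer1 and genes that the study measured by PCR. Other named genes were chosen after their values were seen. Alternatives were contrasts on the unmoderated variance of each probe-set, as the methods describe, further quantile normalization, median centring, the brighter probe-sets (above the median of mean intensity), 1 probe-set per gene, the mean of all probe-sets of a gene, the 6 cauda arrays alone, a replicate block, leaving out each array and, added after seeing the data, leaving out both cauda arrays numbered 3. The procedure was tested on simulated data.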

Additional observations from a re-analysis of the deposited data

Results flagged for a closer look

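For 6 named genes the arrays of the cauda and of the corpus moved in opposite directions without overlap between cKO and control in either region. The difference between regions (effect in the cauda minus effect in the corpus, log2) was -1.02 for Btg2, -1.03 for Nr4a1 and -3.27 for Thbs1, which were lower in the cauda and higher in the corpus of the cKO. It was 0.89 for Mm2pr, 1.21 for Sva, the seminal vesicle autoantigen, and 0.98 for Olfr1040, an olfactory receptor, which were higher in the cauda and lower in the corpus. Sva was at 4.05, 3.90 and 3.63 in the cauda controls and 4.63, 4.86 and 4.36 in the cauda cKO, and at 3.48, 3.77 and 3.72 against 3.22, 3.18 and 3.21 in the corpus. Olfr1040 was between 1.96 and 2.94 on all 12 arrays, at the lower end of the scale. The test of the difference itself gave adjusted p of 0.373 to 0.69 from limma for these 6 genes, so none passed the threshold.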

How the results depend on the processing

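The study's threshold was passed by 310 probe-sets, which became 96 with each probe-set's own variance, 140 among the brighter probe-sets, 186 with 1 probe-set per gene, 114 with a replicate block within region and 107 without both cauda arrays numbered 3 (an alternative added after seeing the data). The 0 probe-sets at an adjusted p under 0.05 became 15 after quantile normalization, 15 after median centring, 2 among the brighter, 1 with 1 probe-set per gene and 90 with the 6 cauda arrays alone, and stayed at 0 with own variances and with a replicate block, also over the 6 cauda arrays. The 2341 probe-sets at an unadjusted p under 0.05 became 920 among the brighter and 1313 with 1 probe-set per gene, where fewer were tested. Median centring split them into 1315 lower and 1196 higher, against 1585 and 756. Leaving out 1 array at a time gave 0 to 118 at an adjusted p under 0.05, 118 to 410 at the threshold of the study, and 0 to 151 for the difference between regions. The highest adjusted counts came when corpus cKO replicate 1 (116) or 3 (118) was absent, and the 151 when the latter was. With 1 array absent it was 33 for cauda control replicate 1, 8 for corpus control replicate 1, 6 for corpus control replicate 3 and 1 for cauda cKO replicate 3. At the threshold of the study, 118 were left without cauda control replicate 2, 163 without control replicate 3, and 184, 152 and 167 without cKO replicates 1, 2 and 3.

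Deviations from the group means correlated at 0.04, 0.02 and 0.07 between same-numbered cauda control and cKO arrays. The numbers were not taken to pair the arrays, although for replicate 3 the array of the same number was the best match. A correlation over all probe-sets says little on a tie limited to some genes, such as part of the caput list, and such a tie was not tested. The median of the 151 spermatid and sperm genes stayed between -0.70 and -0.49, and that of the epithelial, stromal and muscle genes between 0.04 and 0.17. Of 114 named genes, 3 changed sign. Cftr went from -0.06 to 0.33 without both arrays numbered 3, and leaving out 1 array at a time gave -0.29 to 0.14 for Cftr, -0.034 to 0.16 for Cdh1 and -0.77 to 1.67 for Lcn8. The cause was not tested.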
